A study of Homo sapiens with 6 samples.

Results

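The genes described here are 30 regulators and caspases of apoptosis, programmed cell death, taken by name from the human expression array on which the K562 leukaemia line was profiled. A probe set assigned to that gene alone measured 28 of the 30, out of 19775 genes in all. BBC3 had only a probe set shared with other genes, and BIRC3 was not analysed here. The 28 genes had 97 probe sets of 54675 on the array, and the probe set with the highest mean stood for its gene unless stated otherwise.

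Apoptosis runs along 2 routes. In the mitochondrial route, BH3-only proteins neutralise BCL2-like guardians and release the pore formers BAX and BAK1, after which cytochrome c, APAF1 and caspase-9 assemble the apoptosome. In the death receptor route, ligands such as TRAIL (TNFSF10) or FAS ligand recruit FADD and caspase-8 to their receptors, where the decoy CFLAR competes with caspase-8. Inhibitor of apoptosis proteins (IAPs) such as XIAP hold the active caspases in check. K562 cells come from a chronic myeloid leukaemia and carry the BCR-ABL fusion kinase, and retinoids are known to induce TRAIL in acute promyelocytic leukaemia cells.

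K562 cells were given a small interfering RNA (siRNA), which the labels name RNAi8, or scrambled RNA as its control, at up to 200 nM by nucleofection. Treatment with all-trans retinoic acid (ATRA) or the solvent DMSO began 24 hours later. Each of 3 independent experiments contributed an siRNA array and a scrambled array, so each RNA group held 3 arrays. Experiments 1 and 3 were treated with ATRA and experiment 2 with DMSO, so ATRA was applied in 2 experiments and DMSO in 1, and treatment cannot be told apart from experiment on the DMSO side. All cells were from the same line and all were nucleofected. Each value is a log2 expression level from RMA, an algorithm that summarises the probes of a set, and array medians lay between 5.96 and 6.02. A signal below the median of all probe sets (6.00) is called dim here, and for dim genes a difference is one of signal alone. Precision was limited by the number of arrays.

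The series is about PRAME, a repressor of retinoic acid receptor signalling. Its level was 12.13, 12.14 and 12.10 in the siRNA arrays of experiments 1, 2 and 3, against 13.00, 12.99 and 12.70 in the scrambled arrays, which left 58.4% of the signal. Experiment 3 stood apart from the other two. Its actin 3' probe set exceeded the 5' one by 2.98 (siRNA) and 3.36 (scrambled) log2 units, against 0.63 to 0.92 on the other 4 arrays. The corresponding gap for GAPDH was 1.20 (siRNA) and 0.74 (scrambled), against 0.03 to 0.08. The arrays of experiment 3 correlated with the rest at r of 0.979 to 0.982 over probe sets, while the arrays of the other experiments correlated among themselves at 0.996 to 0.998. Results are therefore given with and without experiment 3. All 9 measured K562 and erythroid markers lay at or above the median, up to 13.34 for TFRC, the transferrin receptor. None of the 7 T and NK lymphocyte markers (highest 6.00, just below it), 2 of 4 B lymphocyte markers (highest 6.70), 3 of 7 monocyte and granulocyte markers and 2 of 5 stromal markers (highest 6.48) did so. Of these, LYZ, the lysozyme gene, was at 9.73. In such bulk samples fewer cells of a type and less RNA per cell cannot be told apart.

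Most of the 28 genes lay above the median of all probe sets at their brightest probe set, although 29 of their 97 probe sets were dim. The median level of the 28 genes was 9.15, against 6.73 over all genes tested. Levels of different genes come from different probe sets and are not ranked against each other here. The dim members were 4, namely BCL2A1 (3.52), a guardian, BIK (4.97), a BH3-only gene, the death receptor gene FAS (5.55), and TNFSF10 (5.92 on average). In FAS all 5 probe sets were dim, between 2.85 and 5.55. The cytochrome c gene CYCS lay between 12.98 and 13.24 on the 6 arrays, and the guardian MCL1 between 11.01 and 11.21. The IAP genes XIAP (10.46 to 10.77) and BIRC2 (10.45 to 10.68), and the IAP antagonist gene DIABLO (10.50 to 10.68), spanned less than the pore former gene BAX (6.48 to 8.16) and the BH3-only gene PMAIP1 (9.92 to 11.28). For these last genes the low end was in experiment 3.

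**Figure D1:**
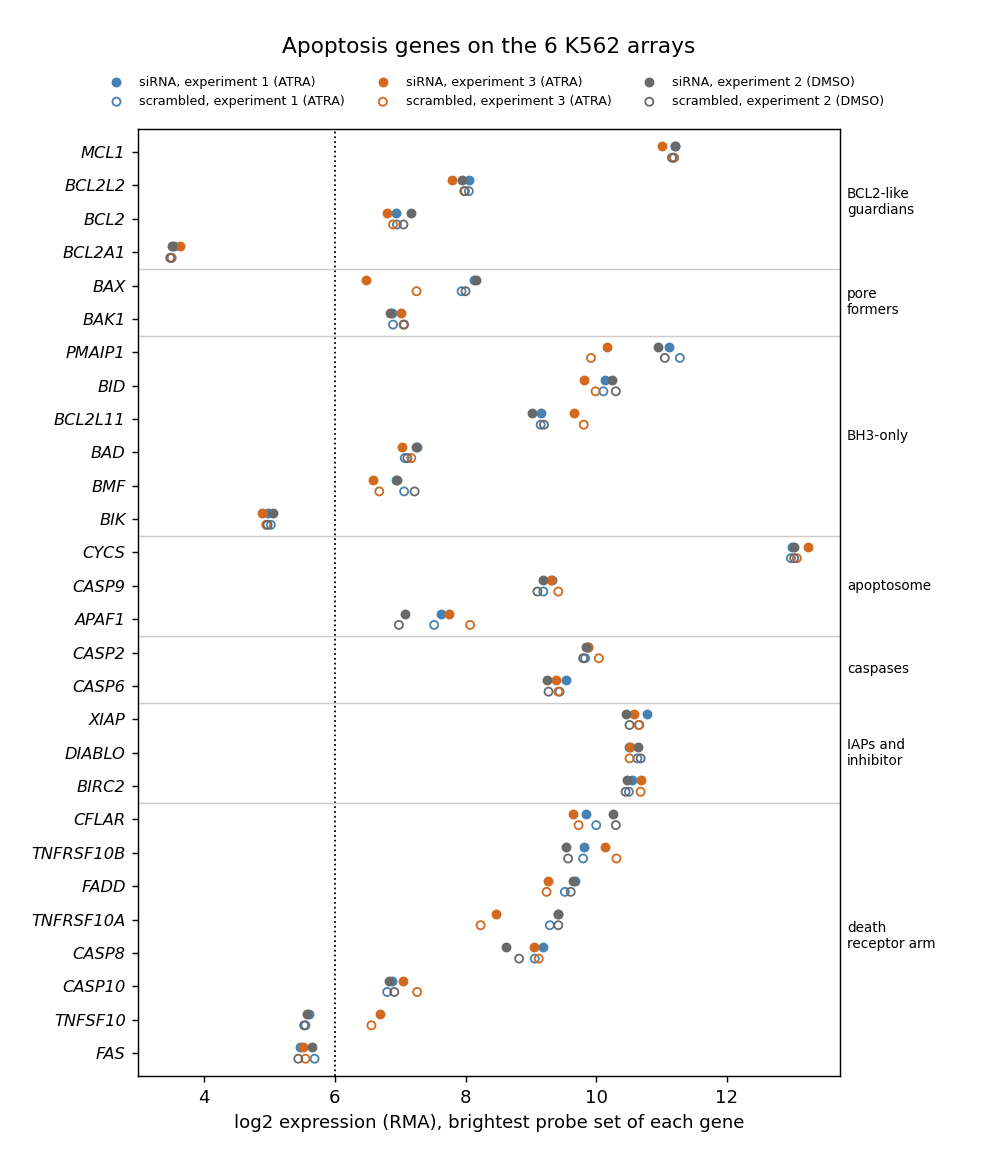
Log2 expression of the 28 measured genes on the 6 arrays, grouped by role, with filled points for siRNA arrays above open points for scrambled arrays and colours for experiments. The dotted line is the median of all probe sets (6.00), and the arrays of experiment 3 lie apart from the others for BAX, PMAIP1, TNFRSF10A and TNFSF10.

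The first comparison asked whether the siRNA changed these genes relative to scrambled RNA. No apoptosis gene passed the test: 0 of the 28 had an adjusted p below 0.05 in limma with treatment as a covariate, where 0% of all genes passed. At an unadjusted p below 0.05 there were 0 of the 28, against 1.29% of all genes (255). When the arrays were paired by experiment (limma, experiment as a block), 0 members passed while 0.0253% of all genes did. Unadjusted, 1 member, BMF, was then below 0.05, against 6.41% of all genes. PRAME itself missed the threshold without the block and passed with it (-0.78, limma adjusted p = 9.97e-04). A miss in the fit without the block thus shows little about a gene. In sign, 10 of the 28 differences were positive and 18 negative, with a median difference of -0.02, against 0.01 over all genes. The differences were small: 24 of 28 were under 0.1 in size, and the range ran from -0.16 (BMF) to 0.12 (TNFRSF10A). The blocked 95% intervals of the 28 genes lay between -0.47 and 0.25, that of BAX from -0.47 to 0.19 and the other 27 between -0.31 and 0.25. The p-values measure the spread between these 3 experiments.

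BMF, a BH3-only gene whose protein binds guardians, had the most negative difference. It measured 6.94, 6.95 and 6.58 with the siRNA in experiments 1, 2 and 3, against 7.06, 7.22 and 6.68 with scrambled RNA. The siRNA array was the lower one in every experiment, although the groups overlapped because experiment 3 was low throughout. The means were 6.82 ± 0.21 with the siRNA and 6.99 ± 0.28 with scrambled RNA (SD, n = 3 each). With the block the difference was -0.16 ± 0.07 (SE, 95% interval -0.31 to -0.02), and it missed the threshold (limma adjusted p = 0.771). With 1 array left out, in the fit without the block, it ran from -0.29 (without the scrambled array of experiment 3) to -0.07 (without the scrambled array of experiment 1). Such a fit leaves a pair broken, so its values also hold differences between experiments. With the block and a whole experiment left out, the difference was -0.18, -0.20 and -0.11 without experiments 1, 3 and 2. Among the BH3-only genes 5 of 6 were lower, between -0.16 and 0.05, and at the brightest probe set BMF alone had the same sign in all 3 experiments. BCL2L11, which encodes BIM, differed by 0.01, -0.18 and -0.15 in experiments 1, 2 and 3. PMAIP1, which encodes NOXA, differed by -0.17, -0.11 and 0.25. BAD, whose protein is switched off by survival kinases, differed by 0.19, 0.12 and -0.15, and BID, which links death receptors to mitochondria, by 0.03, -0.06 and -0.17. Some other probe sets of these genes kept 1 sign. The second of PMAIP1 was lower in every experiment (-0.14, -0.24 and -0.03), as was 1 of the 7 of BCL2L11 (-0.10, -0.21 and -0.17), and the other 2 of BID were higher in every experiment (0.09, 0.05 and 0.11, and 0.12, 0.06 and 0.20).

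CFLAR, which encodes the caspase-8 decoy c-FLIP, measured 9.85, 10.25 and 9.64 with the siRNA in experiments 1, 2 and 3, against 10.00, 10.30 and 9.73 with scrambled RNA. Each siRNA array was again the lower of its pair, and the groups overlapped. The difference was -0.09 ± 0.05 (SE with the block, 95% interval -0.20 to 0.02, limma adjusted p = 0.789). Without the scrambled array of experiment 3 it was -0.17, and without the scrambled array of experiment 1 it was -0.01 (fit without the block, with a pair broken). With the block and a whole experiment left out, it was -0.07, -0.10 and -0.12 without experiments 1, 3 and 2. CFLAR has 14 probe sets, many of which share transcripts and so are not independent readings. Of these 12 were lower with the siRNA on average and 4 were lower in all 3 experiments. The 2 brightest differed by -0.09 and -0.15.

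The pore formers did not move together. BAK1 measured 6.88, 6.84 and 7.01 with the siRNA in experiments 1, 2 and 3, against 6.89, 7.06 and 7.05 with scrambled RNA. Its difference of -0.09 ± 0.07 (SE with the block, limma adjusted p = 0.836) came mostly from the DMSO experiment, where it was -0.22. It was -0.02 without either array of that experiment and -0.16 without the scrambled array of experiment 1 (fit without the block). With the block it was -0.13 without experiment 1 and -0.11 without experiment 3. BAX measured 8.13, 8.16 and 6.48 with the siRNA in experiments 1, 2 and 3, against 7.94, 8.0 and 7.25 with scrambled RNA. The siRNA array was thus higher in experiments 1 and 2, by 0.19 and 0.16, while the difference in experiment 3 was -0.77. The second BAX probe set differed by -0.47 in experiment 3 and by 0.22 and -0.01 in experiments 1 and 2. The GAPDH gap, given above, was wider on the siRNA array of experiment 3 than on its scrambled array, the actin gap was narrower, and their part in the BAX value was not tested.

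In the death receptor route 3 of 8 genes were higher with the siRNA, between -0.09 and 0.12. FADD, the adaptor between receptor and caspase, measured 9.67, 9.65 and 9.26 with the siRNA in experiments 1, 2 and 3, against 9.52, 9.61 and 9.24 with scrambled RNA. The difference of 0.07 ± 0.05 (SE with the block, limma adjusted p = 0.838) was positive in each experiment but near 0 in 2 of them. TNFSF10 measured 5.60, 5.58 and 6.69 with the siRNA in experiments 1, 2 and 3, against 5.55, 5.53 and 6.56 with scrambled RNA, so it was dim in experiments 1 and 2 and above 6.00 in experiment 3. Its mean difference was 0.07 ± 0.07 (SE with the block, limma adjusted p = 0.860), and its other probe sets differed by 0.25 and 0.11 in signal, so that the mean of its probe sets gave 0.14. TNFRSF10A, the gene of TRAIL receptor 1, was the most positive of all (0.12, 95% interval -0.01 to 0.25 with the block, limma adjusted p = 0.786), with 0.14, -0.01 and 0.23 in experiments 1, 2 and 3. The initiator caspase gene CASP8 differed by 0.13, -0.20 and -0.07, and TNFRSF10B, the gene of TRAIL receptor 2, by 0.01, -0.03 and -0.17.

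Among the guardians, dim BCL2A1 measured 3.54, 3.50 and 3.63 with the siRNA in experiments 1, 2 and 3, against 3.50, 3.48 and 3.50 with scrambled RNA. This difference of 0.07 in signal, which ran from 0.03 to 0.09 with 1 array left out (the lowest without the siRNA array of experiment 3), is at a level where no expression was shown. BCL2, which blocks pore formation, averaged 6.97 ± 0.19 with the siRNA and 6.97 ± 0.08 with scrambled RNA (SD, n = 3 each). MCL1, a short-lived guardian, averaged 11.14 ± 0.11 with the siRNA and 11.18 ± 0.02 with scrambled RNA (SD, n = 3 each). Its blocked 95% interval ran from -0.16 to 0.08. The apoptosome genes APAF1, CASP9 and CYCS ranged between -0.04 and 0.06, the caspase genes CASP2 and CASP6 between -0.02 and 0.01, and the IAP genes with DIABLO between -0.05 and 0.02.

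**Figure D2:**
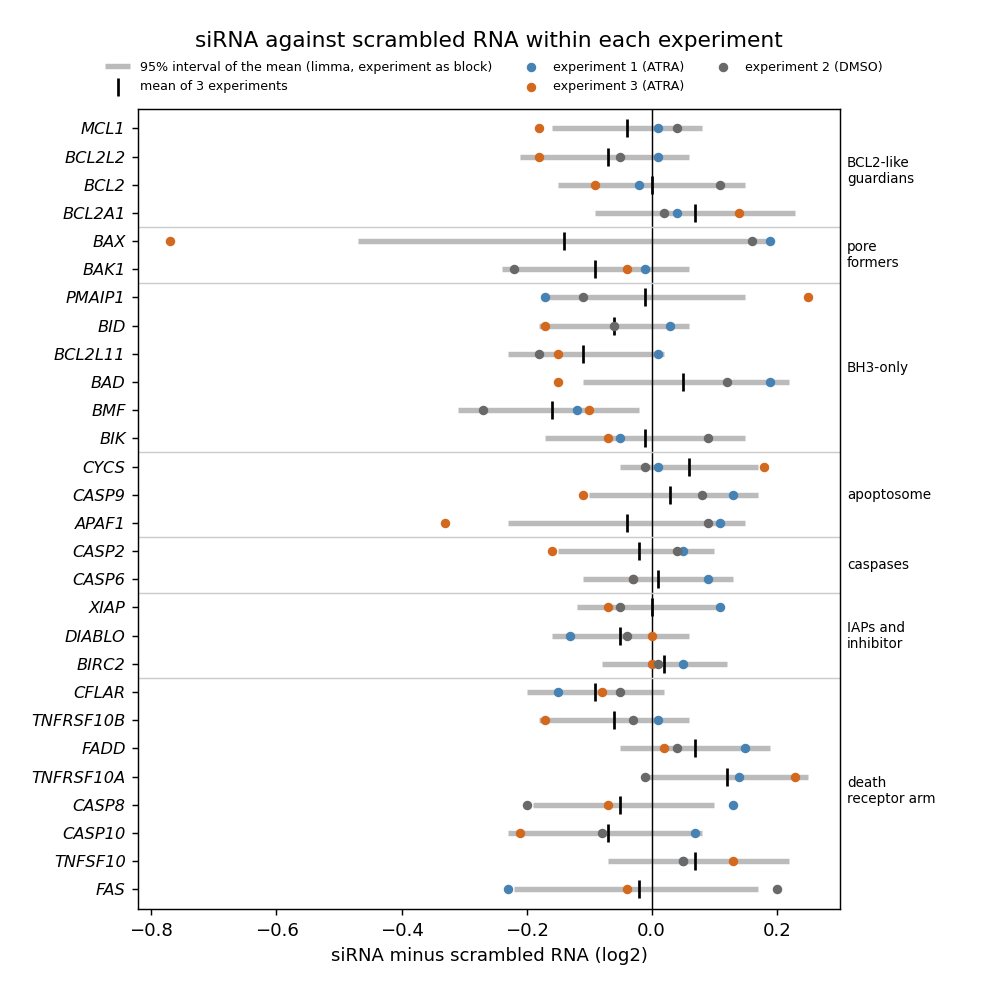
Difference in log2 expression, siRNA minus scrambled RNA, for each of the 28 genes within each experiment (points), with the mean of the 3 experiments (black tick) and its 95% interval in limma with the experiment as a block (grey bar). Most points lie close to 0, the interval of BMF alone lies wholly below it, and BAX in experiment 3 (-0.77) is far from its other 2 values.

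The 3 experiments did not order these genes alike. The siRNA array was higher for 20 of 28 genes in experiment 1 (71.4%), 13 in experiment 2 and 7 in experiment 3 (25%), while 50.5% of all genes were higher in experiment 1 and 50.2% in experiment 3. The same sign in all 3 experiments was seen for 6 of 28 genes (21.4%), against 25% of all genes. Those 6 were BMF, CFLAR and BAK1 on the lower side and FADD, TNFSF10 and BCL2A1 on the higher side. Without experiment 3, a split added after seeing the data, 15 genes were higher with the siRNA instead of 10. Over the 97 probe sets 42 were higher, and 7 had an unadjusted p below 0.05 in limma with the block (7.22%, against 5.27% of all probe sets).

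The second comparison asked how ATRA-treated cells differed from DMSO-treated cells, with both arrays of an experiment averaged. APAF1, the apoptosome scaffold, and CASP8 were higher in both ATRA experiments, and so was TNFRSF10B. CFLAR was lower in both, as was BCL2 by a smaller margin. These genes were chosen among members with both ATRA experiments on 1 side of DMSO, as were 68.1% of all genes. That their arrays lie apart is thus partly built in, and the 2 arrays of an experiment are not independent readings of the treatment. None of the 28 genes passed the test with the experiment as the replicate (limma on 2 ATRA means against 1 DMSO mean), where 0% of all genes passed. At an unadjusted p below 0.05 stood 1 member, APAF1, against 1.19% of all genes (235). With 1 DMSO mean the test could pass little: CYP26A1, a retinoic acid target, was 5.94 higher with ATRA and did not pass either. A miss of this threshold thus shows little about a gene. In sign, 16 were higher and 12 lower, with a median of 0.01, against -0.01 over all genes.

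APAF1 measured 7.63 (siRNA) and 7.52 (scrambled) in ATRA experiment 1 and 7.74 (siRNA) and 8.07 (scrambled) in ATRA experiment 3, against 7.07 (siRNA) and 6.98 (scrambled) in the DMSO experiment. All 4 ATRA arrays lay above both DMSO arrays. The difference of means was 0.72 ± 0.23 (SE, 95% interval 0.06 to 1.38, limma adjusted p = 0.995). ATRA experiment 1 exceeded DMSO by 0.56 (limma adjusted p = 0.0949, with the 2 arrays of each experiment as replicates) and ATRA experiment 3 by 0.89. That both were on the same side was a condition for naming the gene. The other 2 probe sets, at levels of 6.70 and 5.49, differed in experiment 1 by only 0.03 and -0.10. The measurement therefore rests on 1 probe set of 3, and the mean of the 3 gave 0.20 in place of 0.72.

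CASP8 measured 9.19 (siRNA) and 9.06 (scrambled) in ATRA experiment 1 and 9.05 (siRNA) and 9.12 (scrambled) in ATRA experiment 3, against 8.62 (siRNA) and 8.82 (scrambled) under DMSO. The ATRA arrays lay above the DMSO arrays without overlap, by 0.40 in experiment 1 and 0.36 in experiment 3. The difference was 0.38 ± 0.27 (SE, 95% interval -0.39 to 1.16, limma adjusted p = 0.995). Its other probe sets, at 6.09 and 5.21, differed in experiment 1 by 0.08 and -0.04 and in experiment 3 by -0.29 and 0.05. The mean of its probe sets gave 0.10 in place of 0.38. TNFRSF10B measured 9.81 (siRNA) and 9.80 (scrambled) in ATRA experiment 1 and 10.14 (siRNA) and 10.31 (scrambled) in ATRA experiment 3, against 9.54 (siRNA) and 9.57 (scrambled) under DMSO. Again no array overlapped, and the margins were 0.24 in experiment 1 and 0.67 in experiment 3. The other 3 probe sets of TNFRSF10B, at 4.15 to 6.80, differed in experiment 1 by -0.04 to 0.13, and the mean of its probe sets gave 0.15 in place of 0.46.

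CFLAR measured 9.85 (siRNA) and 10.00 (scrambled) in ATRA experiment 1 and 9.64 (siRNA) and 9.73 (scrambled) in ATRA experiment 3, against 10.25 (siRNA) and 10.30 (scrambled) under DMSO. Every ATRA array lay below both DMSO arrays. The difference was -0.47 ± 0.30 (SE, 95% interval -1.32 to 0.39, limma adjusted p = 0.995), with -0.35 in experiment 1 and -0.59 in experiment 3. The 3 probe sets with the highest levels differed in experiment 1 by -0.35, -0.42 and -0.40, and those at 7.18 by -0.24 and 0.03. Of all 14 probe sets 9 were lower in experiment 1 than in experiment 2 and 12 were lower in experiment 3 than in experiment 2, and their mean gave -0.32 in place of -0.47.

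**Figure D3:**
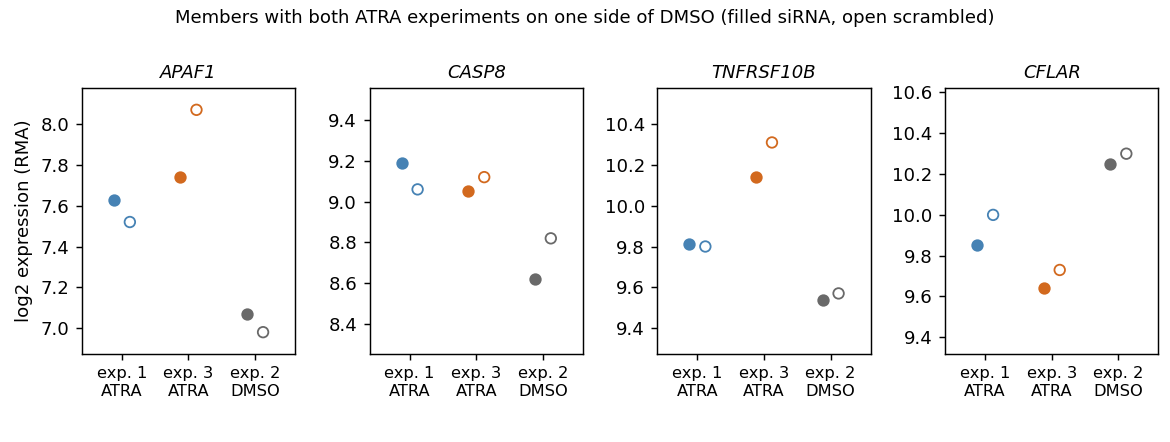
Log2 expression of APAF1, CASP8, TNFRSF10B and CFLAR on each array of ATRA experiments 1 and 3 and of DMSO experiment 2, filled for siRNA and open for scrambled RNA, on axes of equal span. The ATRA arrays lie above the DMSO arrays for the first 3 genes and below them for CFLAR. The genes were chosen among members with both ATRA experiments on 1 side of DMSO.

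Promoter windows of APAF1, CASP8 and CFLAR are shown because these 3 members differed by 0.3 or more in size between ATRA experiment 1 and DMSO, a choice made after their values were seen. CFLAR and CASP8, whose differences had opposite signs, are near neighbours on chromosome 2 with CASP10 between them. CASP10, a close relative of CASP8, averaged 6.84 and 7.15 in ATRA experiments 1 and 3, against 6.87 under DMSO. The sequences are from RefSeq on GRCh38.p14, each from 250 bases before to 50 bases after a start of transcription, 5' to 3', on the plus strand at chr12:98645040-98645339 (APAF1), chr2:201233213-201233512 (CASP8, the first of 3 windows) and chr2:201118466-201118765 (CFLAR, the first of 4). Capitals mark the GC box GGGCGG, a site of SP1-like factors, found on either strand.
APAF1: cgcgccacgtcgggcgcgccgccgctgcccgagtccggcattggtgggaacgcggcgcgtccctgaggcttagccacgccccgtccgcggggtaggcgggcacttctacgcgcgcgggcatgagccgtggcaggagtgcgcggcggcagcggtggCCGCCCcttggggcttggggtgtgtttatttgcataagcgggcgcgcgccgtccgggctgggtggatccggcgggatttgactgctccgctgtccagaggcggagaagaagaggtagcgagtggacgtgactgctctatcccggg
CASP8: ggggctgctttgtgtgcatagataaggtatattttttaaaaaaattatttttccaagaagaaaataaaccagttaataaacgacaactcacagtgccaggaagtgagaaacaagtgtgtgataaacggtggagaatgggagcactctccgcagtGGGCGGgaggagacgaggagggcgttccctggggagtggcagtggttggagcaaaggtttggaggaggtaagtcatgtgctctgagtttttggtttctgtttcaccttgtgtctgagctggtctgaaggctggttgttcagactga
CFLAR: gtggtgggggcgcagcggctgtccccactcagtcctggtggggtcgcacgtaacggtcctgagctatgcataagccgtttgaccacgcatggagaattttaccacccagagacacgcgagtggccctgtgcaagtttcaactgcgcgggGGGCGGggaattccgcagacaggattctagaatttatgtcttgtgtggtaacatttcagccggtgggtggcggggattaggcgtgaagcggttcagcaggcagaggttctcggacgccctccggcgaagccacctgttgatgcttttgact

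A GC box was in 45% of all 35116 promoter windows and in 31 of the 45 windows of the members (24 genes had a window). The half-sites AGGTCA and AGTTCA, which retinoic acid receptors bind in pairs, were searched on both strands and were in none of the 3 printed windows. AGGTCA was in 13.8% of all windows and in 6 of the 45, and AGTTCA in 10.4% and in 1 of the 45. Of the other CFLAR windows, 1 held AGTTCA and 1 held AGGTCA. The other 2 CASP8 windows held neither. These are matches of letters in short windows, and binding was not measured.

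Among the guardians, BCL2 measured 6.93 (siRNA) and 6.95 (scrambled) in ATRA experiment 1 and 6.80 (siRNA) and 6.89 (scrambled) in ATRA experiment 3, against 7.17 (siRNA) and 7.05 (scrambled) under DMSO. The ATRA arrays were all lower, by a mean of -0.22 ± 0.15 (SE, limma adjusted p = 0.995). Its other 3 probe sets were dim, with 0.07, -0.09 and 0.13 in experiment 1. In experiment 3 they were higher than under DMSO, by 0.65, 0.13 and 0.05, against -0.27 at the brightest. The mean of its probe sets gave 0.06 in place of -0.22. MCL1 averaged 11.20 in ATRA experiment 1 and 11.10 in ATRA experiment 3, against 11.18 under DMSO, so the DMSO level lay between the ATRA levels. BCL2L2, another guardian gene, averaged 8.06 and 7.89 in ATRA experiments 1 and 3, against 7.97 under DMSO.

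The BH3-only genes differed little in experiment 1, between -0.14 (BID) and 0.19 (PMAIP1), and 4 of 6 were lower than DMSO in both ATRA experiments. BMF measured 6.94 (siRNA) and 7.06 (scrambled) in ATRA experiment 1 and 6.58 (siRNA) and 6.68 (scrambled) in ATRA experiment 3, against 6.95 (siRNA) and 7.22 (scrambled) under DMSO. The arrays of experiment 1 overlapped those under DMSO, and the mean difference of -0.27 ± 0.21 (SE, limma adjusted p = 0.995) came mostly from experiment 3. PMAIP1 averaged 11.19 and 10.04 in ATRA experiments 1 and 3, against 11.00 under DMSO. Its second probe set averaged 9.91 and 9.89 in ATRA experiments 1 and 3, against 9.65 under DMSO, so that both probe sets were higher in experiment 1 and they had opposite signs in experiment 3.

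Of the remaining genes of both routes, the executioner caspase gene CASP6 averaged 9.49 and 9.40 in ATRA experiments 1 and 3, against 9.25 under DMSO. Its second probe set, at a level of 9.18, differed from DMSO by 0.17 in experiment 1 and by -0.48 in experiment 3. XIAP averaged 10.72 and 10.61 in ATRA experiments 1 and 3, against 10.49 under DMSO. In experiment 1 XIAP was higher at 6 of its 7 probe sets, whereas in experiment 3 it was lower at 6 of 7 (-1.43 to -0.01) and higher at the brightest alone (0.13). CASP9, the apoptosome caspase, averaged 9.26 and 9.36 in ATRA experiments 1 and 3, against 9.14 under DMSO, while its second probe set, at 7.74, differed by 0.05 and -0.22. DIABLO stood at 10.56 and 10.51 in ATRA experiments 1 and 3, against 10.66 under DMSO. At the brightest probe set each of these was on the same side of DMSO in both ATRA experiments, as were 21 of the 28 genes (75%, 11 of them higher), against 68.1% of all genes.

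TNFSF10, the TRAIL gene, was dim in experiments 1 and 2 and above 6.00 in experiment 3. It measured 5.60 (siRNA) and 5.55 (scrambled) in ATRA experiment 1 and 6.69 (siRNA) and 6.56 (scrambled) in ATRA experiment 3, against 5.58 (siRNA) and 5.53 (scrambled) under DMSO. The 1.07 margin of experiment 3 was absent in experiment 1 (0.02). The other 2 probe sets averaged 5.91 and 5.51 in ATRA experiment 1 and 4.83 and 5.86 in ATRA experiment 3, against 5.58 and 5.19 under DMSO. They were thus higher by 0.33 and 0.32 in experiment 1, and in experiment 3 the 3 probe sets went in different directions. CYP26A1, the retinoic acid target used to check the treatment, was 5.94 higher in ATRA-treated cells and also missed the threshold on the experiment means.

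**Figure D4:**
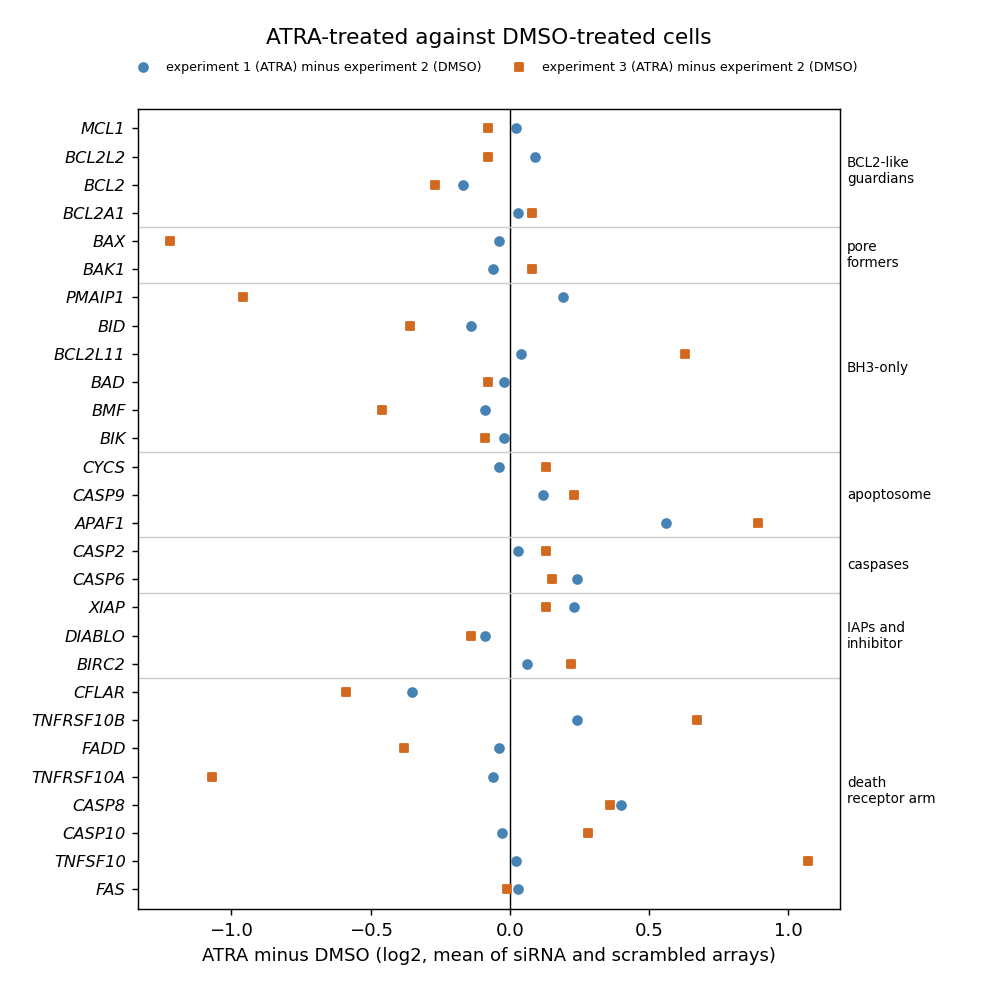
Difference in log2 expression from DMSO experiment 2 for ATRA experiment 1 (circles) and ATRA experiment 3 (squares), for each of the 28 genes. Circles stay between -0.35 (CFLAR) and 0.56 (APAF1), while squares reach -1.22 (BAX) and 1.07 (TNFSF10).

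Taken singly, the ATRA experiments gave different counts. In experiment 1 against experiment 2, 0 of the 28 genes passed the adjusted threshold, where 0.182% of all genes did. At an unadjusted p below 0.05 there were 9 of 28 (32.1%), against 14.9% of all genes. Bright genes passed more often: at levels of 6 or more the shares were 37.5% of 24 members and 19.9% of 12853 genes. The 9 were APAF1, TNFRSF10B, CASP6, XIAP, CASP8 and PMAIP1 on the higher side and CFLAR, BID and BCL2 on the lower side, with adjusted p from 0.0949 upwards. In experiment 3 against experiment 2, 13 of the 28 passed (6 higher, 7 lower), against 29.3% of all genes, a share not matched for signal level. The 6 that rose were APAF1, TNFRSF10B, CASP8, BIRC2, BCL2L11 and TNFSF10. The 7 that fell were CFLAR, BAX, PMAIP1, BID, BMF, FADD and TNFRSF10A, and BAX (-1.22) and TNFRSF10A (-1.07) went furthest. Each call is that of the brightest probe set. The other 6 of BCL2L11 differed by -1.05, -0.56, -0.22, -0.62, 0.30 and 0.43, and the other 2 of BID by 0.19 and 0.56. Those of TNFRSF10A differed by -0.88 and 1.11. Some other probe sets of APAF1, CASP8, CFLAR, PMAIP1, TNFRSF10B and TNFSF10 also went against the call. In experiment 1, BAX differed by -0.04 and TNFRSF10A by -0.06. In both of these tests the replicates were the siRNA and the scrambled array of the same experiment, so the spread between experiments is not in the p-values.

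Probe sets of the same gene parted in experiment 3. Relative to ATRA experiment 1, ATRA experiment 3 was lower by at least 1 log2 unit at 11 of the 97 probe sets (11.3%, against 2.28% of all probe sets) and higher by at least 1 at 3 (3.09%, against 0.991%). These shares were not matched for signal level: 29 of the 97 were dim, whereas the median divides all probe sets equally. Some of the 11 also came from the same gene. Between ATRA experiment 1 and DMSO experiment 2 none of the 97 differed by 1 unit. CYCS is an example: its brightest probe set was 13.16 in experiment 3 and 12.98 in experiment 1, while the second was 7.42 in experiment 3 and 6.34 in experiment 1 and the third was 6.08 in experiment 3 and 7.62 in experiment 1. For XIAP the brightest probe set differed by -0.10 between these experiments and 2 others by -1.42 and -1.58. For TNFRSF10A the probe sets differed by -1.01, -0.83 and 1.11, and for CFLAR they ran from -1.82 to 0.17, with 13 of 14 lower. The median size of this difference was 0.27 over the 97 probe sets, against 0.13 over all probe sets, again not matched for signal level. The larger actin and GAPDH gaps belong to the same 2 arrays, and their part in these values was not tested.

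**Figure D5:**
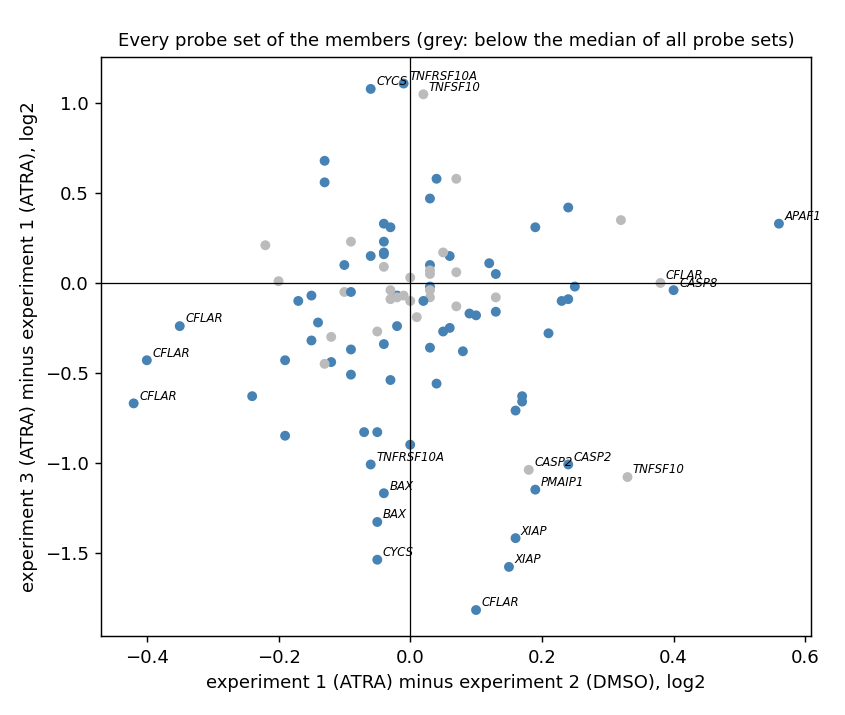
Each point is 1 of the 97 probe sets of the members, with the difference of ATRA experiment 1 from DMSO experiment 2 on the horizontal axis and of ATRA experiment 3 from ATRA experiment 1 on the vertical axis (both log2), grey where dim. The vertical spread, from -1.82 to 1.11, exceeds the horizontal one, from -0.42 to 0.56, and points of CYCS and of TNFRSF10A lie at both ends.

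The third comparison asked whether the siRNA effect was different under ATRA and under DMSO. None of the 28 genes passed (limma with 4 groups), where 0% of all genes did, and 0 members had an unadjusted p below 0.05, against 1.32% of all genes (262). FAS, which was dim, had siRNA differences of -0.23 and -0.04 in ATRA experiments 1 and 3 and of 0.20 under DMSO. That is a difference of -0.34 in signal, with a 95% interval of -0.72 to 0.03 with the block (limma adjusted p = 0.998), and the mean of its probe sets gave -0.06. For BAK1 they were -0.01 and -0.04 in ATRA experiments 1 and 3 and -0.22 with DMSO, which makes 0.20 (95% interval -0.12 to 0.51 with the block, limma adjusted p = 0.998). Dim BIK, a BH3-only gene, stood at -0.05 and -0.07 in ATRA experiments 1 and 3 and at 0.09 with DMSO, which makes -0.14. Over the 28 genes the difference ranged from -0.45 (BAX, whose 2 ATRA experiments had opposite signs) to 0.23 (CASP8). The DMSO side is 1 pair of arrays, and with or without the block it is assumed to vary like the ATRA pairs. The fit of 4 groups does not pair the arrays by experiment, so a miss in it shows little about a gene.

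Of 40 further apoptosis genes 35 were measured. With the siRNA 23 were higher and 12 lower, with a median of 0.03, and 0 passed with or without the block. BNIP3L, a mitophagy receptor of the BCL2 family, had differences of -0.10, -0.19 and -0.48 in experiments 1, 2 and 3. Of the 35 it alone had an unadjusted p below 0.05 in limma with the block, against 6.41% of all genes, with a mean of -0.25 and an adjusted p of 0.664. With ATRA 19 were higher and 16 lower, and 0 passed on the experiment means. In ATRA experiment 1 against DMSO experiment 2, 9 of 35 had an unadjusted p below 0.05 (25.7%, against 14.9% of all genes) and 0 passed. Among all genes at levels of 6 or more the share was 19.9%, but some of the 35 lay below 6, so the sets are unlike. The most positive was TNFRSF1A, the TNF receptor gene, at 8.17 in experiment 1 and 8.04 in experiment 3 under ATRA, against 7.84 under DMSO (0.33 in experiment 1, limma adjusted p = 0.116). BCL2L1, the gene of the guardian BCL-xL, averaged 8.88 and 9.15 in ATRA experiments 1 and 3, against 8.96 under DMSO. TRADD, an adaptor of the TNF receptor, averaged 7.83 and 8.08 in ATRA experiments 1 and 3, against 7.91 under DMSO.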

How the data were processed

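The log2 expression values are as deposited. Per the series' design text, the authors applied RMA in BRB-ArrayTools to Affymetrix U133 Plus 2.0 arrays, with settings not given in these sources. Per the labels' protocols, TRIzol-purified total RNA was labelled by 3' in vitro transcription, which reads from the 3' end. GEO's platform annotation paired 41091 of 54675 probe sets with 1 gene and 1801 with several. Each of 19775 genes was represented by its probe set with the highest mean, with no filter on dim ones.

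Comparisons were fitted in limma 3.58.1 (R 4.3.3) with lmFit and eBayes (trend), p-values were adjusted over all genes by Benjamini-Hochberg, and the threshold was 0.05. They were tested on simulated data with independent noise on each array and no shared shift of an experiment, unlike these data. The siRNA fit took in the 6 arrays and adjusted for treatment, ATRA was compared on experiment means, and a fit of 4 groups gave the difference of siRNA effects. The samples are paired by experiment number, since the labels mark independent experiments. Deviations from the mean of each RNA group correlated at 0.679, 0.795 and 0.883 within experiments 1, 2 and 3. They also hold the treatment and the offset of experiment 3, so they do not show the pairing by themselves. Alternatives were the replicate block, other probe set rules, a filter on dim probe sets and left-out arrays.

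The members and lists were chosen with earlier results of these data known. Members named with full values were those with the same sign in all 3 experiments (up to 6 by smallest p), up to 6 with both ATRA experiments on 1 side of DMSO, up to 3 for the difference of effects, and TNFSF10, BCL2 and MCL1. Others were named after their values were seen. Motifs were exact matches in RefSeq promoter windows. No 2 arrays held identical values.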

Additional observations from a re-analysis of the deposited data

How the results depend on the processing

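Of the 19 values of single genes tested, BCL2 with the siRNA was 0.00 and ran from -0.05 to 0.06 over its alternatives. Over 226 alternatives for the other 18, 215 kept their sign and 11 did not. The largest difference among those that changed sign was that of BCL2 with ATRA (-0.22). With ATRA, the mean of all probe sets turned BCL2 to 0.06 and MCL1 to 0.05, and MCL1 was 0.03 in the scrambled arrays alone and 0.02 in experiment 1 against experiment 2 with every probe set tested on its own (an alternative chosen after seeing the data). MCL1 ran from -0.08 to 0.02 when 1 ATRA experiment was left out. For the siRNA, MCL1 was 0.03 with the replicate block and without experiment 3. With single arrays left out, which breaks a pair, MCL1 ran from -0.09 to 0.03, FADD from -0.05 to 0.18 and TNFSF10 from -0.24 to 0.38. With the block and a whole experiment left out, FADD was 0.03 without experiment 1 and 0.09 without experiment 3. TNFSF10 was 0.09 without experiment 1 and 0.05 without experiment 3. The replicate block called 5 genes for the siRNA where the fit without it called 0. It called 2 without experiment 3, and 1 each without experiment 1, in the ATRA experiments alone and with every probe set tested on its own (the last chosen after seeing the data). No member was among them, and the block changed no other call. For ATRA the random block called 2 genes, experiment 1 against experiment 2 over probe sets 25, and leaving out an ATRA experiment gave 36 to 5788 genes and 0 to 13 members. Those 13 members included APAF1, CFLAR, CASP8, TNFRSF10B, BMF and TNFSF10 and came from experiment 3 against experiment 2. The cause was not tested. Dim BCL2A1, BIK, FAS and TNFSF10 have no value under the filter on dim probe sets. With 1 pair of arrays left on each side, the difference of siRNA effects has values but no test. What the number of arrays and dim signals limit is the precision of every value here.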
